A study of Mus musculus with 46 samples.

Results

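The genes described here are 10 members of the Hippo pathway and its read-out: the coactivators Yap1 and Wwtr1, the DNA-binding partners Tead1, Tead2, Tead3 and Tead4, the target genes Ctgf and Cyr61, and the kinases Lats1 and Lats2. They were taken by name from the 22367 protein-coding genes of the mouse annotation GENCODE vM1 on the mm9 assembly. The rule used no measured value, but earlier results of these data were known when the members were chosen. For each gene, the peaks of a library that overlapped the stretch from 1 kb before the gene start to 1 kb after the gene end (the gene window) were taken, and their tag counts, scaled by the authors to 10 M sequenced tags, were summed. A summed value is therefore a total of tags per 10 M over a window, which grows with gene length, and levels were compared between genes only after division by window length.

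The study followed the histone variant H3.3 by ChIP-Seq while mouse embryonic fibroblasts changed fate, and 30 libraries of immunoprecipitated chromatin and 16 input libraries made up its 46 samples. In the reprogramming system, fibroblasts carrying an IRES-EGFP cassette behind the Oct4 gene received retroviral Oct4, Sox2, Klf4 and c-Myc (OSKM), and were collected unsorted on days 0 and 3 (D0, D3), sorted by the fibroblast surface protein Thy-1 on days 6 and 9, and by the pluripotency antigen SSEA-1 on days 12 and 16. Thy-1-negative (D6T-, D9T-) and SSEA-1-positive cells (D12S+, D16S+) are the fractions that the study treats as reprogramming successfully, and D6T+, D9T+, D12S- and D16S- are the other fraction of the same day. In the transdifferentiation system, fibroblasts received the blood factors Scl, Lmo2, Runx1 and Bmi1 (SLBR), and were collected on day 0 (MEF) and day 4 (D4) and as sorted cKit+ and cKit- cells.

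Fully reprogrammed iPSCs and ES-D3 (ESD3), a line of mouse embryonic stem cells, were the pluripotent end points. Per the labels, D0 and MEF were fibroblasts in serum medium. The reprogramming cells, iPSCs and ESD3 are labelled as grown without feeder cells in a medium with serum replacement and leukaemia inhibitory factor. It also held ascorbic acid, fibroblast growth factor and the GSK3 inhibitor CHIR99021. By these labels, cell state and medium differed together. The paper's methods differ, and give iPSCs and ESD3 a medium with serum or one with serum replacement. Both lack ascorbic acid, fibroblast growth factor and CHIR99021. The methods name these media for reprogramming too, beside the labelled one. The retroviral factors entered mixed populations, and a sorted fraction is a surface phenotype and not a clone. H3.3 was profiled in 16 libraries, and H3K4me3 and H3K36me3 in 7 libraries each, those of D0, D3, the successful fractions and iPSCs. Every combination of mark and cell population had 1 library, so no difference below has a replicate check and no p-value is given. The 95% intervals cover counting error alone and not the spread between separate cultures, and sequenced tags without molecular identifiers are not independent molecules.

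As background, the Hippo pathway is a kinase cascade that restrains growth and responds to cell contact and shape. Lats1 and Lats2 phosphorylate Yap1 and the related protein Taz, the product of Wwtr1, which keeps them out of the nucleus. Unphosphorylated Yap1 and Taz bind Tead proteins on DNA and switch on genes such as Ctgf and Cyr61, which encode secreted matrix-associated proteins made abundantly by fibroblasts. Of the chromatin features, H3.3 is the histone H3 variant that is deposited outside DNA replication at promoters and along transcribed genes, H3K4me3 lies at gene starts, and H3K36me3 lies over transcribed gene bodies.

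The 250 bases before the annotated start of 3 members are printed 5′ to 3′ on the gene's strand of mm9, because the results turn on these genes and because the letters that Tead proteins recognise were found in Cyr61 and Wwtr1 and not in Tead4. Capitals mark the letters GGAATG, or CATTCC where the match is on the opposite strand. The stretch of Cyr61 is at chr3:145312950-145313199 (minus strand), that of Wwtr1 at chr3:57379833-57380082 (minus) and that of Tead4 at chr6:128250842-128251091 (minus).
Cyr61: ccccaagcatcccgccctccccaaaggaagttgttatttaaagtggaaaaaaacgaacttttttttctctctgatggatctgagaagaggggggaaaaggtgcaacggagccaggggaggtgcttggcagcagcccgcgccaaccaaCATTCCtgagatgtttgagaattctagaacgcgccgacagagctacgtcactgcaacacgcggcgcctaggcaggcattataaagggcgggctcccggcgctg
Wwtr1: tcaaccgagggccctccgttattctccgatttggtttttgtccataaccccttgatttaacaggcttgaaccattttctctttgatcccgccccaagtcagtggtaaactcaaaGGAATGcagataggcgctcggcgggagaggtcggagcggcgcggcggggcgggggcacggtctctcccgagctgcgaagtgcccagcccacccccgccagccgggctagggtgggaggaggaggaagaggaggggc
Tead4: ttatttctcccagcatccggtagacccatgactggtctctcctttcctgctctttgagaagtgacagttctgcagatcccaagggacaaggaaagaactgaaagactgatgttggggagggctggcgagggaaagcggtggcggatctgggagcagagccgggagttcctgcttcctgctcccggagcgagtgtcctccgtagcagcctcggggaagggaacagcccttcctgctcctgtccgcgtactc

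The letters were searched in 9 of the 10 members. Cyr61 held them once, with the first base 103 bases upstream of its gene start. Wwtr1 held them at 136 bases, Yap1 at 141, Tead3 at 182 and Tead1 at 196, whereas Tead2, Tead4, Lats1 and Lats2 had no such match in this stretch. In all, 5 of these 9 members had at least 1 match on either strand, beside 11.4% of the 22367 promoters of the same length. The AP-1 letters TGANTCA, which do not overlap with GGAATG, were found in 0 of the 9 and in 6.00% of all promoters. The number of CpG dinucleotides in the stretch ran from 4 in Lats2 to 44 in Yap1 with a median of 18 over the 9 members, beside a median of 8 over all promoters. The stretch of Lats2 lies before the start of 1 transcript only, and 4 others start 12.3 kb downstream. A match of letters is a description of the sequence and does not show that a protein was bound there.

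H3.3 peaks were present on the members nearly throughout reprogramming. Of 120 pairs of a member and a reprogramming library, 119 had a peak, and Lats1 in D16S+ was the exception. H3K4me3 peaks were present in 70 of 70 pairs and H3K36me3 peaks in 58 of 70, where Ctgf had no H3K36me3 peak at any time-point, and the other 5 empty pairs were Tead2 in D16S+, Tead3 in D12S+ and D16S+, and Cyr61 in D9T- and D16S+. In transdifferentiation, 33 of 40 pairs had an H3.3 peak, and the 7 empty pairs were all in the cKit libraries (Tead2, Tead3 and Ctgf in both, and Cyr61 in cKit+). Of all protein-coding genes, 43.4% to 63.5% had an H3.3 peak in the reprogramming libraries and 31.8% to 72.1% in those of transdifferentiation. An H3K4me3 peak lay on 51.6% to 70.2% and an H3K36me3 peak on 23.5% to 50.3%.

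The libraries differed widely in what was called, and these differences bear on every value below. Depth ranged from 13.2 to 91.8 M tags and the share of tags in peaks, as the file headers state it, from 1.07% to 42.38%. The H3.3 lists held from 25637 peaks (cKit-) to 108179 (D4), and in reprogramming from 34062 (D16S+) to 89727 (D0), with a peak on 31.8% to 72.1% of protein-coding genes. For H3K36me3, the D12S+ list had 12322 peaks and the D0 list 57288. Marker genes followed the labels at the end points of reprogramming: H3.3 peaks lay on 8 of 8 fibroblast markers in D0 and in MEF, on 2 in iPSCs and on 0 in ESD3, and on 8 of 8 pluripotency markers in iPSCs and in ESD3, beside 3 in D0 and 2 in MEF. Of 8 blood markers, 3 had a peak in cKit+ and 4 in cKit-, and Kit itself had none in either library. Fibroblast markers had peaks on 5 of 8 in cKit+ and 6 of 8 in cKit-, so by these counts the markers went against the labels of the cKit cells. Summed tags per 10 M were 191 in cKit+ and 256 in cKit- on the fibroblast markers, and 17.7 and 124 on the blood markers. These sums are not divided by gene length, so the 2 sets cannot be compared by them. Only 1.65% of tags in cKit+ and 2.31% in cKit- lay in peaks.

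Because of these differences, a difference between 2 libraries was taken as log2(summed tags per 10 M + 10) minus that of the reference library, and centred on its median over all protein-coding genes with a peak in either library. A member was called lower or higher at a centred difference of 1 or more, and the share of all such genes called the same way is given beside each count. Less signal per cell and fewer cells with the signal cannot be told apart in these mixed samples.

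**Figure D1:**
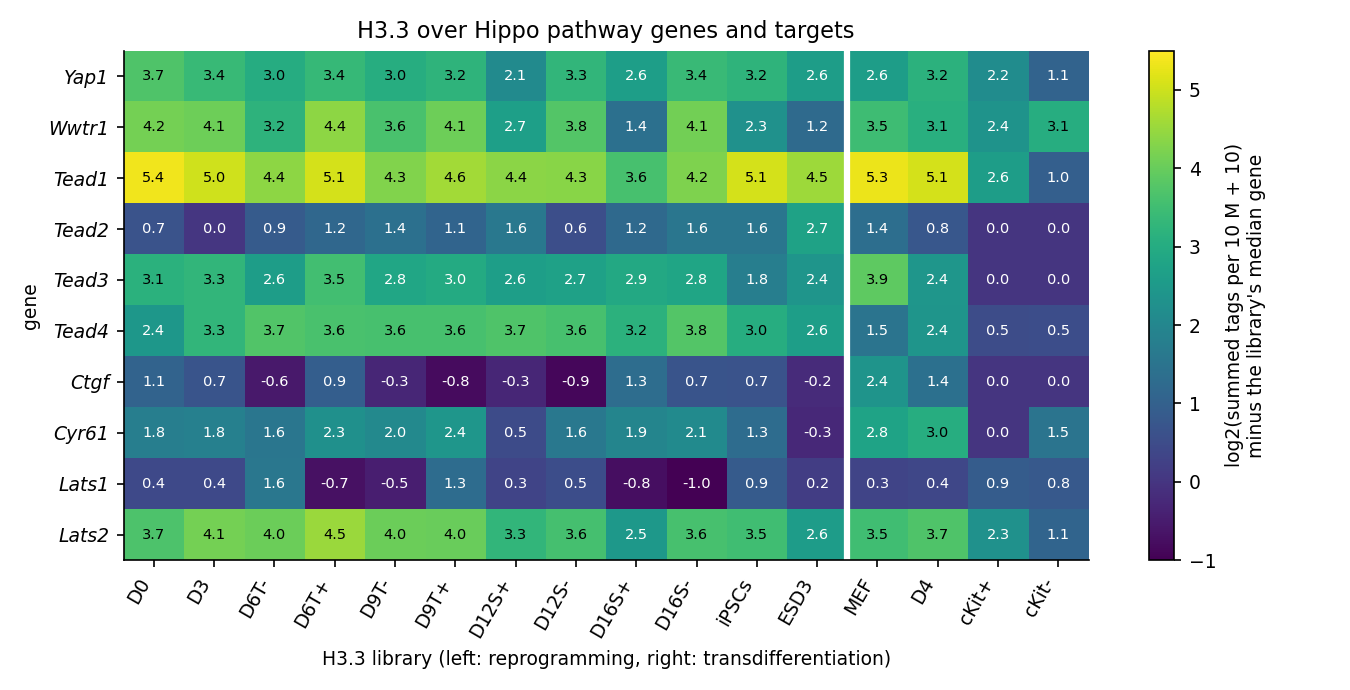
Each cell gives, for 1 gene (rows) and 1 H3.3 library (columns, reprogramming left of the white line and transdifferentiation right of it), log2(summed tags per 10 M + 10) minus the median gene of that library. Tead1 was highest in D0 at 5.36, Wwtr1 went from 4.15 in D0 to 2.29 in iPSCs and 1.25 in ESD3, and Tead4 ranged from 2.44 in D0 to 3.76 in D16S- over the 12 reprogramming libraries.

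Wwtr1, which encodes the coactivator Taz, was the member whose H3.3 separated fibroblasts from pluripotent cells by most. Its 120 kb gene (chr3:57259571-57379832, minus strand) carried 847 tags per 10 M in D0 and 519 in D3. On the successful route D6T- had 468, D9T- 470, D12S+ 122 and D16S+ 34.9, and the other fractions had 569 (D6T+), 506 (D9T+), 825 (D12S-) and 570 (D16S-). The pluripotent cells had 173 (iPSCs) and 38.9 (ESD3). The 2 SSEA-1-positive libraries, iPSCs and ESD3 were the 4 lowest of the 12, and none of the other 8 came under 468. With the median gene of each library taken off on the log2 scale, the same 4 stayed lowest, from 1.25 in ESD3 to 2.67 in D12S+. D6T- was next at 3.21. The D16S+, D12S+ and ESD3 lists were also the shortest of the 12, and the part of list length was not tested. In iPSCs against D0, the summed tags were 0.204 of the D0 level (95% counting interval 0.187 to 0.222) and the centred log2 difference was -1.77, which was called lower. Against D0, ESD3 gave a centred difference of -2.91.

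Most of the difference in Wwtr1 between D0 and iPSCs lay in the body of the gene. Within 2 kb on either side of its start, with peaks prorated to the stretch, H3.3 was 25.7 tags per 10 M in D0, 29.2 in iPSCs and 8.10 in ESD3. Over the rest of the gene downstream it was 817 in D0, 129 in iPSCs and 30.8 in ESD3. In the map of peaks along Wwtr1, D0 had 33 peaks covering 57.8 kb, with a peak of 9.78 kb from 15.9 to 25.7 kb as the highest-scoring, whereas iPSCs had 14 peaks over 14.8 kb, of which the highest-scoring lay before the gene start, and ESD3 had 5 peaks over 2.85 kb.

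**Figure D2:**
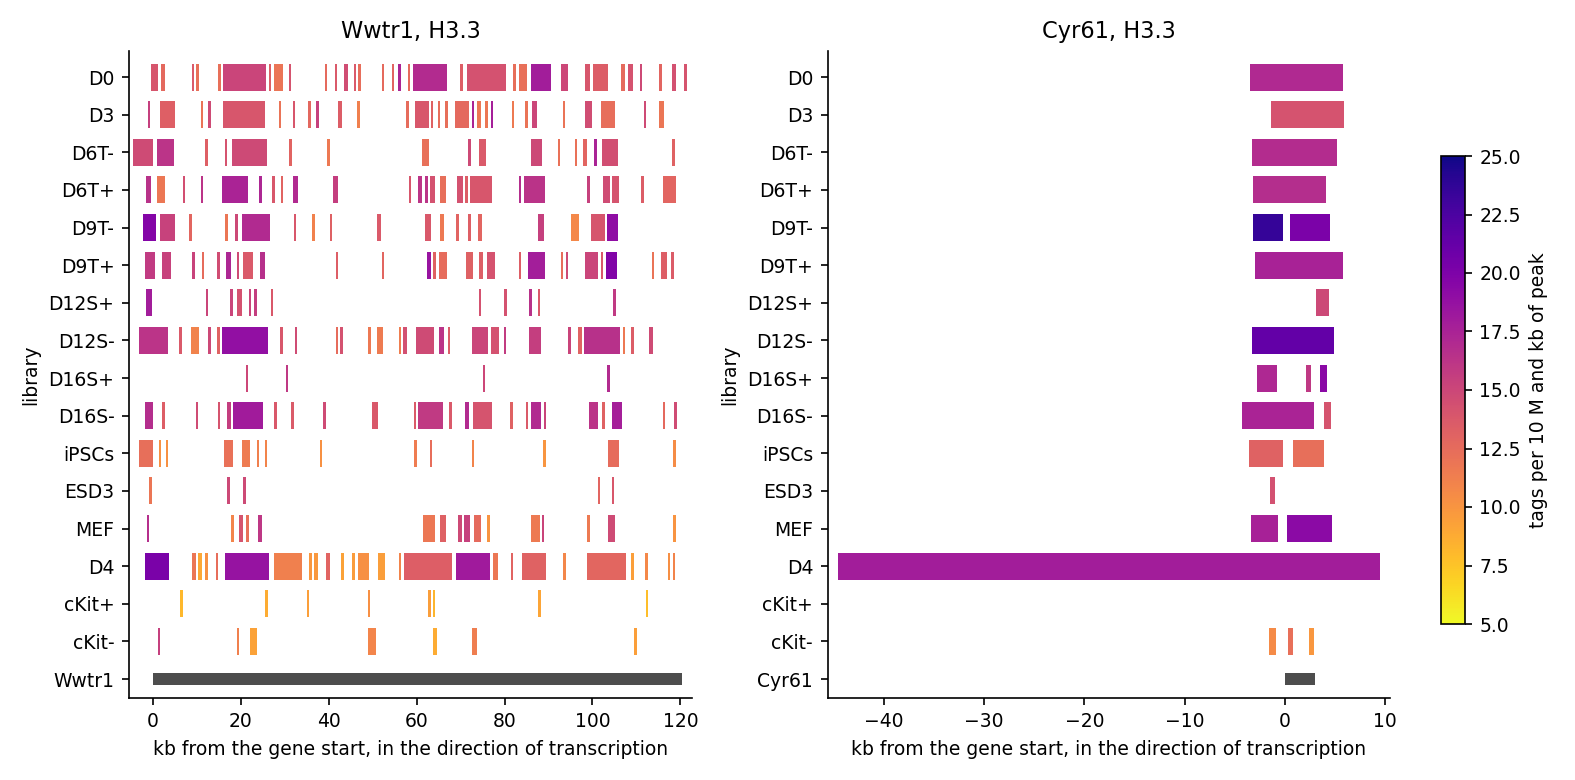
H3.3 peaks (bars) of 16 libraries (rows) along Wwtr1 (left) and Cyr61 (right), placed by distance in kb from the gene start in the direction of transcription, with colour for tags per 10 M and kb of peak and a grey bar for the gene. Wwtr1 went from 33 peaks in D0 to 14 in iPSCs and 5 in ESD3, and in D4 a single 54.1 kb peak spanned Cyr61.

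Yap1, the paralogous coactivator (chr9:7931999-8004596, minus strand), differed less. Its H3.3 was 622 tags per 10 M in D0 and 315 in D3, and on the successful route D6T- had 411, D9T- 306, D12S+ 78.6 and D16S+ 95.8. The iPSCs had 342 and ESD3 had 116. The D12S+ library was the lowest, and the iPSC value lay near the median of 310 over the 12 reprogramming libraries. The centred difference of iPSCs from D0 was -0.38 and that of ESD3 from D0 was -1.10. The day 0 libraries of the 2 systems disagreed, with 120 tags per 10 M in MEF and a centred difference of D0 from MEF of 1.17, so Yap1 did not separate the fibroblast from the pluripotent libraries.

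The Tead genes encode the DNA-binding partners of both coactivators, and they did not move together. Tead1 (chr7:119822832-120050319, plus strand) is the longest member at 227 kb and had 1965 tags per 10 M in D0, 1244 in iPSCs and 473 in ESD3, with a median of 832 over the 12 libraries and its lowest value of 195 in D16S+. Its centred difference in iPSCs against D0 was -0.20. Tead2 (chr7:52471123-52489005, plus strand), known for its expression in early embryos, went the other way, with 66.0 tags per 10 M in D0, 44.4 in MEF, 99.5 in iPSCs and 128 in ESD3, the highest of the 12, beside 22.1 in D3 as the lowest. Its centred difference from D0 was 0.98 in iPSCs, just under the call, and 2.09 in ESD3. Tead2 shares part of its window with Cd37, and 45.0% of its H3.3 sum in D0 lay in the window of that gene against 12.6% in iPSCs. With peaks prorated to the window, the centred difference in iPSCs was 0.92. With the shared part left out as well, it was 1.92. That value rests on 11.0 tags per 10 M in D0, near the 10 added before taking logs, and 51.8 in iPSCs.

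Tead3 (chr17:28468616-28487750, minus strand) had 416 tags per 10 M in D0, 310 in MEF, 118 in iPSCs and 97.2 in ESD3, and was called lower in iPSCs against D0 at -1.28 (0.283 of the D0 level, interval 0.254 to 0.316). With flanks of 5 kb in place of 1 kb, this difference was -0.97. The 12 reprogramming libraries had a median of 250, with D0 highest and ESD3 lowest. In ESD3 against D0, its centred difference was -0.76, which is within the band of 1. Between 7.2% and 20.7% of its H3.3 sum lay in the windows of the neighbouring genes Rpl10a and Tulp1 in reprogramming libraries. Parts of peaks beyond its own window made up 13.8% to 60.9% of the sum. Tead4 (chr6:128174306-128250841, minus strand), the partner known for its part in forming the trophectoderm of the early embryo, had 251 tags per 10 M in D0 and 295 in D3, and on the successful route D6T- had 679, D9T- 460, D12S+ 261 and D16S+ 144. The iPSCs had 299 and ESD3 had 119. The intermediates on days 6 and 9 were above D0 in both fractions, with 335 in D6T+ and 369 in D9T+. Its centred difference in iPSCs against D0 was 0.70.

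The target genes are short, and with peaks counted whole, Cyr61 was the most densely marked member with Tead3 and then Ctgf next. Such counting adds tags beyond the window. In D0, 85.6 of 157 tags per 10 M on Cyr61 lay inside its window, and 74.3 of 90.3 on Ctgf. Per kb of window, Cyr61 (chr3:145309935-145312949, minus strand) had a median of 25.4 tags per 10 M over the 12 reprogramming libraries and Ctgf (chr10:24315248-24318489, plus strand) a median of 5.54, whereas the medians of the other 8 members ran from 0.682 for Lats1 to 11.8 for Tead3. In D0, the density on Cyr61 stood at percentile 98.6 of all protein-coding genes and that on Ctgf at 95.4. In iPSCs these percentiles were 97.8 and 93.5, and in ESD3 79.4 and 80.5. Each ESD3 value rests on a single peak of 0.5 kb that touched only a flank. That of Cyr61 lay from -1.44 to -0.937 kb and that of Ctgf from 4.01 to 4.51 kb, counted from the gene start.

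On the summed scale, Cyr61 had 157 tags per 10 M in D0, 134 in MEF, 81.9 in iPSCs and 7.17 in ESD3, and the 12 reprogramming libraries ranged from that ESD3 value to 176 in D12S- with a median of 128. Ctgf had 90.3 in D0, 100 in MEF, 49.0 in iPSCs and 8.10 in ESD3, and its lowest value was 6.89 in D12S+ beside a median of 29.0. On both genes the fibroblast libraries were above both pluripotent libraries, while the pluripotent libraries were far apart from each other. The centred differences from D0 in iPSCs were -0.40 for Cyr61 and -0.31 for Ctgf, within the band of 1, and in ESD3 they were -2.05 and -1.24. Between 28.5% and 87.4% of the Cyr61 sum in reprogramming libraries came from parts of peaks beyond its window, since a peak is counted whole.

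The kinases are the inhibitory arm of the pathway. Lats2 (chr14:58260914-58377225, minus strand) had 607 tags per 10 M of H3.3 in D0, 234 in MEF, 414 in iPSCs and 115 in ESD3, and the 12 reprogramming libraries ran from 82.9 in D16S+ to 843 in D6T- with a median of 516. Its centred difference in iPSCs against D0 was -0.08. Lats1 (chr10:7401007-7436256, plus strand) was the most thinly marked member, with 55.3 in D0, 16.9 in MEF, 57.7 in iPSCs and 13.4 in ESD3, and no peak in D16S+. The highest of the 12 was D6T- with 145, and the median was 25.4. Its centred difference in iPSCs against D0 was 0.51, but 0.01 with peaks prorated to the window, -0.16 with the windows of other genes left out and -0.54 with peaks counted by their midpoint, so its direction depended on the overlap rule. The sum in iPSCs was 1.04 times that in D0 (interval 0.845 to 1.29).

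Counted over the members, H3.3 in iPSCs against D0 was lower on 2 of 10 (Wwtr1 and Tead3) and higher on 0, with a median of -0.25. Over all 15815 genes with a peak in either library, 24.4% were lower and 28.2% higher, so the count of lower members was near the share among all genes. With H3.3 peaks of at least 4-fold over input, 7 members were lower, beside 28.4% of all genes: the call was then passed also by Yap1 (-3.02), Cyr61 (-2.40), Ctgf (-1.67), Tead1 (-1.29) and Tead4, which turned from 0.70 to -1.46. The median peak stood at 4.13-fold over input in D0 and 3.25-fold in iPSCs, and the part of this in the count was not tested. In ESD3 against D0, 5 members were lower (Wwtr1, Cyr61, Ctgf, Yap1 and Lats2) and Tead2 was higher, beside 24.4% lower and 25.1% higher over all genes. Both comparisons use the same D0 library, and the second was added after the data had been seen. The ESD3 list held 52506 peaks, beside 89727 in D0 and 81867 in iPSCs, and the part of that difference in the calls was not tested.

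Separately prepared libraries of like cells also differed on the members. D0 against MEF, both fibroblasts of day 0, gave 1 member lower (Ctgf at -1.24) and 2 higher (Yap1 at 1.17 and Tead4 at 1.01), beside 15.4% lower and 16.5% higher over all genes, and a median absolute difference of 0.64 with a 90th percentile of 1.78. iPSCs against ESD3 gave 1 lower (Tead2 at -1.11) and 2 higher (Cyr61 at 1.64 and Wwtr1 at 1.13), beside 14.9% and 14.3%, with a median absolute difference of 0.61 and a 90th percentile of 1.61. The difference of Wwtr1 in iPSCs against D0 (-1.77) was thus close to the 90th percentile of both like pairs, and that of Tead3 (-1.28) was below it.

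Setting the fibroblast pair against the pluripotent pair, a comparison added after the data had been seen, 6 members had both D0 and MEF above both iPSCs and ESD3 after centring: Wwtr1, Tead3, Cyr61, Ctgf, Tead1 and Lats2. The gap between the lower fibroblast and the higher pluripotent library was 1.21 for Wwtr1, 0.73 for Tead3, 0.44 for Cyr61, 0.35 for Ctgf, 0.24 for Tead1 and 0.02 for Lats2. Tead4 and Tead2 had both pluripotent libraries above, with gaps of 0.24 and 0.20, and Yap1 and Lats1 overlapped. Of the 16480 genes compared, 25.4% had the fibroblast pair above, 26.5% the pluripotent pair above, and 9.07% had the fibroblast pair above by 1 or more, as Wwtr1 alone among the members did.

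**Figure D3:**
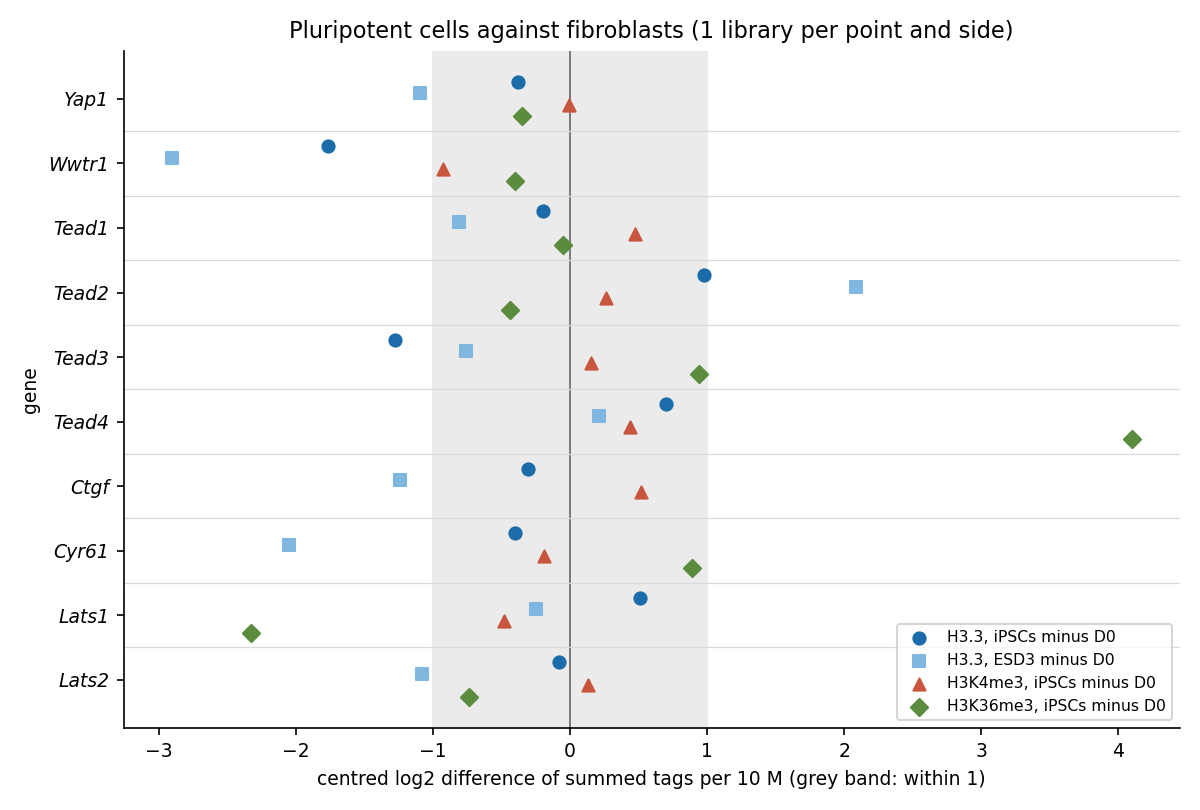
Centred log2 difference of summed tags per 10 M (x axis) for each member (y axis), with 1 library on each side of a point. Circles are H3.3 of iPSCs minus D0, squares H3.3 of ESD3 minus D0, triangles H3K4me3 and diamonds H3K36me3 of iPSCs minus D0, and the grey band spans differences within 1. Wwtr1 lies at -1.77 and -2.91 for H3.3, and Tead4 at 4.10 and Lats1 at -2.33 for H3K36me3. Ctgf has no diamond because it had no H3K36me3 peak.

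H3K4me3 did not separate the end points on any member by the call. In iPSCs against D0, 0 of 10 members were lower and 0 higher, beside 8.44% and 11.4% of 16379 genes, and the centred differences ran from -0.93 for Wwtr1 to 0.52 for Ctgf. For this mark, Wwtr1 had 670 tags per 10 M in D0 and 450 in D3, D6T- had 638, D9T- 480, D12S+ 147, D16S+ 32.3 and iPSCs 141, and the last 3 were the lowest. Its peak at the gene start went from 535 tags over 6.93 kb in D0 to 114 tags over 3.57 kb in iPSCs. On the deposited scale, without centring, 6 members were lower by 1 or more and 0 higher, since the median gene itself stood at -1.24. With peaks prorated to the window, Wwtr1 (-1.02) passed the call, and with the windows of other genes left out as well, Lats1 (-1.02) also did. The lowest of the 7 H3K4me3 sums was in D16S+ for 10 of 10 members, and that library had the fewest peaks (19633) and the lowest share of tags in peaks (3.71%) of its mark.

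Cyr61 had a single H3K4me3 peak at each of the 7 time-points, which lay over its start at 6 of them and ended upstream of it in D16S+, with 581 tags per 10 M over 8.53 kb in D0, and iPSCs had 210 over 7.19 kb and D16S+ 11.4 over 0.63 kb. On Ctgf, a peak of 3.32 kb held 160 in D0 and one of 3.38 kb held 93.4 in iPSCs. Parts of the H3K4me3 sums of Tead3 and the kinases belong to other genes as well. On Tead3, the windows of Rpl10a and Tulp1 held 17.4% to 32.0% of the sum, and 33.2% to 52.3% lay outside its window. Its highest-scoring peak lay over its own start in D0. In iPSCs that peak lay 18.4 to 23.1 kb downstream, over the start of Rpl10a at 22.3 kb. Pcmt1 starts just upstream of Lats1, and its window held 43.9% to 100% of the Lats1 sum. The window of Xpo4 held 38.4% to 86.5% of the Lats2 sum, and in D0 the highest-scoring Lats2 peak lay 11.0 to 15.0 kb downstream of the annotated gene start, over the start of the transcript Lats2-001 at 12.3 kb.

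At gene starts, H3.3 and H3K4me3 were found together on 4 to 9 of the 10 members, depending on the time-point. A peak of each mark within 1 kb of the start was present on 8 of 10 members in D0 and 6 in D3, then D6T- had 7, D9T- 6, D12S+ 4, D16S+ 5 and iPSCs 9, beside 37.7%, 29.2%, 36.2%, 36.1%, 26.3%, 17.3% and 43.0% of all protein-coding genes. H3K4me3 was there on 9 of 10 members at each of the 7 time-points, and on Lats2 at none, while 43.6% to 64.0% of all genes had it. The annotated start of Lats2 is that of 1 transcript, Lats2-007, whereas 4 transcripts start at 12.3 kb, so its values here may not describe the promoter in use. The time-points therefore differed by H3.3. Tead4 had an H3.3 peak at its start at 7 of 7 time-points, Yap1, Wwtr1, Tead1 and Cyr61 at 6, Ctgf at 5, Tead2 at 4, Lats1 at 3, Tead3 at 2 and Lats2 at 1. The D12S+ and D16S+ lists, with the fewest members marked by both, were also the shortest H3.3 lists of the 7 with 45922 and 34062 peaks, and the part of list length was not tested.

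H3K36me3 gave the widest differences among the members. On Tead4, D0 had 19.3 tags per 10 M and D3 had 12.2, followed by 229 (D6T-), 809 (D9T-), 7.09 (D12S+), 8.34 (D16S+) and 67.2 (iPSCs). D9T- was the highest of the 7, with 10 peaks over 36.1 kb where D0 had 3 over 1.63 kb. The share of tags in peaks was 42.38% in D9T- and 31.34% in D0, and 1.07% in D12S+, and the part of this in the values was not tested. The sum in D9T- was 41.4 times that in D0 (interval 31.1 to 56.3), a centred difference of 4.24, and the sum in iPSCs was 3.44 times that in D0 (interval 2.48 to 4.85), a centred difference of 4.10. On Lats1, D0 had 626 and D3 had 248, followed by 185 (D6T-), 708 (D9T-), 35.2 (D12S+), 21.6 (D16S+) and 9.47 (iPSCs). The iPSC value rests on a single peak of 0.638 kb, and at 0.0151 of D0 (interval 0.00957 to 0.0228) it had a centred difference of -2.33.

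**Figure D4:**
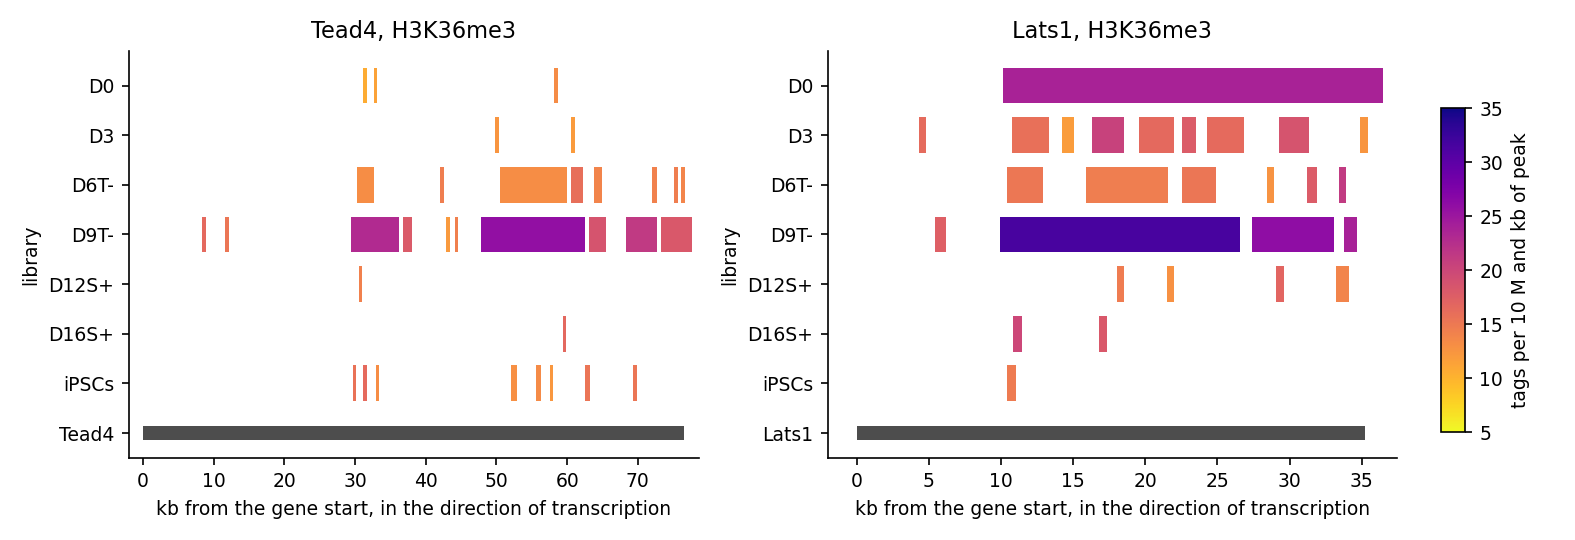
H3K36me3 peaks (bars) of 7 libraries (rows) along Tead4 (left) and Lats1 (right), placed by distance in kb from the gene start in the direction of transcription, with colour for tags per 10 M and kb of peak and a grey bar for the gene. On Tead4 the peaks covered 1.63 kb in D0 and 36.1 kb in D9T-, and on Lats1 26.3 kb in D0 and 0.638 kb in iPSCs.

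Over the members, H3K36me3 in iPSCs against D0 was lower on Lats1 and higher on Tead4 of the 9 with a peak, beside 26.4% lower and 28.5% higher over 11804 genes. The median gene stood at -2.70, and the share of tags in peaks was 2.88% in iPSCs, and on the deposited scale 8 members were lower and Tead4 alone was higher. For D9T- against D0, a comparison added after the data had been seen, 3 members were lower (Cyr61 at -3.28, Tead1 at -1.57 and Tead3 at -1.14) and Tead4 was higher, beside 18.5% and 16.6% of 12217 genes. Cyr61 had 55.6 tags per 10 M of H3K36me3 in D0, 53.7 in D3 and no peak in D9T-. Yap1, Tead2, Lats1 and Lats2 had sums in D9T- between 1.07 and 1.23 times those in D0, while the median gene stood at 0.56 on the log2 scale, and their centred differences lay between -0.47 and -0.27.

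The sorted fractions of a day address whether H3.3 on these genes differed between cells on and off the successful route. Wwtr1 was below the other fraction on 4 of 4 days. It had 468 tags per 10 M in D6T- and 569 in D6T+, 470 in D9T- and 506 in D9T+, 122 in D12S+ and 825 in D12S-, and 34.9 in D16S+ and 570 in D16S-. The centred differences were -1.10, -0.41, -1.21 and -2.51 on days 6, 9, 12 and 16, so that 3 of 4 days passed the call. The day 6 value was -0.94 with a pseudocount of 20 and -0.27 with no centring, and the day 16 value was -0.63 with H3.3 peaks of at least 4-fold over input. Of 12033 genes compared on 4 days, 3.18% were lower on at least 3 days. Yap1 and Tead1 were also below 0 on 4 of 4 days, with medians of -0.41 and -0.39, as were 14.1% of genes. For Yap1 this depended on the overlap rule, since its day 9 value was -0.18 with whole peaks and 0.01 with peaks prorated to the window. The other 7 members had at least 1 day of each sign with whole peaks counted. With peaks prorated to the window, Tead3 and Cyr61 were below 0 on every day, with day 16 values of -0.44 and -0.27. Tead2 was then above 0 on every day, with 0.10 on day 16.

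On day 6, Ctgf (-1.42, 25.5 against 43.6 tags per 10 M) and Wwtr1 were lower in D6T-, and Lats1 was higher at 2.37 (145 against 6.98), beside 14.5% lower and 15.0% higher over all genes. With flanks of 5 kb the Ctgf difference was -0.18. On day 9, Lats1 was lower in D9T- at -1.73 (18.1 against 65.4) and 0 members were higher, beside 13.5% and 10.6%. With peaks of at least 4-fold over input it was -0.84. The kinase gene thus had opposite signs on these 2 days, with 9 peaks in D6T-, 1 in D6T+, 3 in D9T- and 7 in D9T+. On day 12, Yap1 (-1.29), Cyr61 (-1.24) and Wwtr1 were lower in D12S+, beside 15.8%, and 0 were higher, beside 11.8%. Cyr61 had 18.9 tags per 10 M in D12S+ in a single peak of 1.27 kb and 176 in D12S- in a single peak of 8.23 kb, and with flanks of 5 kb its difference was -0.94. On day 16, Wwtr1 alone was lower and 0 were higher, beside 19.2% and 18.9%.

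**Figure D5:**
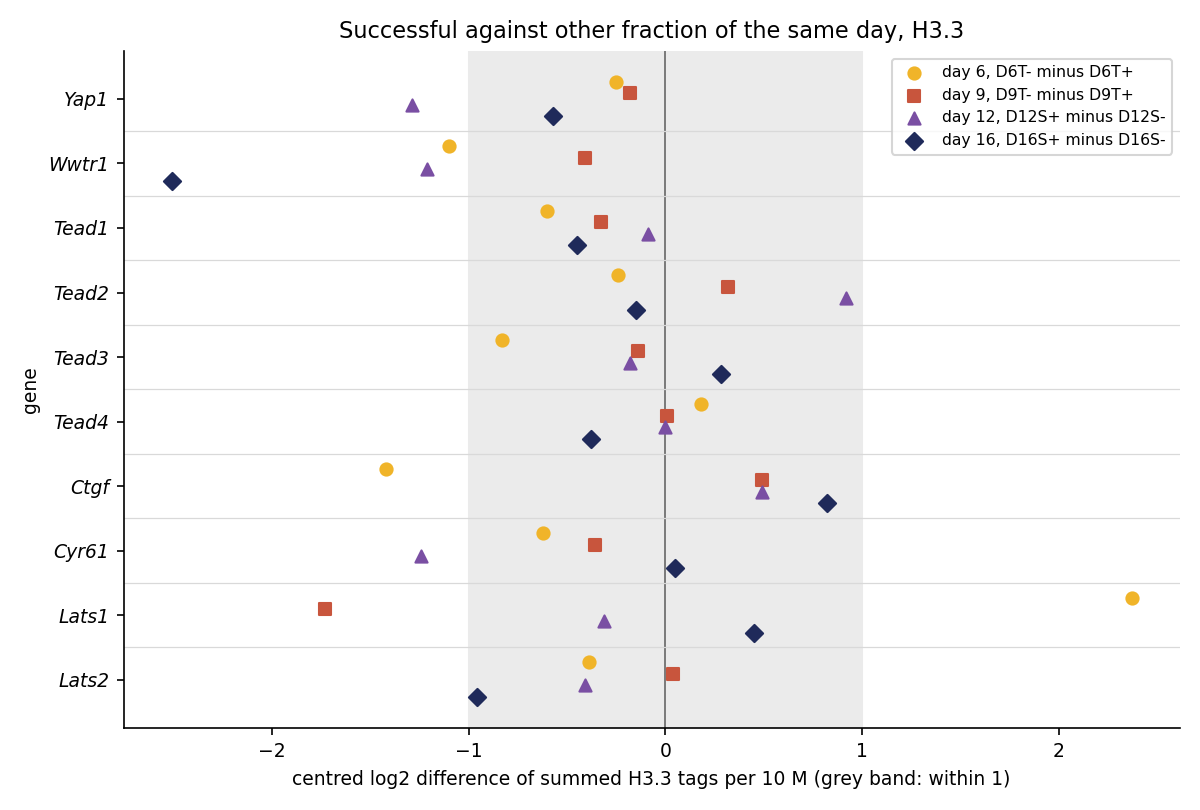
Centred log2 difference of summed H3.3 tags per 10 M (x axis) of the successful minus the other fraction for each member (y axis), with circles for day 6, squares for day 9, triangles for day 12 and diamonds for day 16, and a grey band for differences within 1. Wwtr1 lies left of 0 on all 4 days, down to -2.51 on day 16, and Lats1 lies at 2.37 on day 6 and -1.73 on day 9.

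Library size moved with these comparisons. The lists held 82764 peaks in D6T- and 60705 in D6T+, and on the late days 45922 in D12S+ against 87536 in D12S- and 34062 in D16S+ against 65454 in D16S-. The median gene stood at 0.82, 0.30, -1.45 and -1.18 on days 6, 9, 12 and 16, and on the deposited scale 8 members were lower on day 12 and 7 on day 16, while on day 6 no member was lower. Fibroblast markers moved with the fractions too, with 7 of 8, 7 of 7, 4 of 7 and 3 of 7 lower in the successful fraction on days 6, 9, 12 and 16. Their summed H3.3 was 893 tags per 10 M in D6T- against 1734 in D6T+, and D16S+ had 12.8 against 478 in D16S-. The part of list length and of remaining fibroblasts in the Wwtr1 differences was not tested.

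In transdifferentiation, the D4 library had more H3.3 on each member than MEF. Yap1 had 120 tags per 10 M in MEF and 1075 in D4, Wwtr1 231 and 1006, Tead1 831 and 4046, Tead3 310 and 629, and Tead4 50.0 and 612. Lats2 had 234 and 1561, Lats1 16.9 and 146, and Tead2 44.4 and 194. In D4, 2 peaks covered 233 kb over Tead1, and the longer spanned 194 kb. The median gene stood at 2.18, and after centring Tead3 was lower (-1.18) and Tead4 higher (1.20), beside 15.7% and 17.1% of 16327 genes. The Tead3 difference was -0.77 with peaks prorated to the window and with no centring 1.00, which rounds up to the call, when the other 9 members were higher. D4 had the largest share of tags in peaks of the H3.3 libraries, 37.21% against 7.64% in MEF.

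The D4 peaks at the target genes were far longer than the genes. Cyr61 had 971 tags per 10 M in D4 in a single peak of 54.1 kb, from 44.6 kb before the gene start to 9.53 kb after it, and 134 in MEF in 2 peaks over 7.21 kb. Of the D4 sum, 90.7% lay outside the gene window. Ctgf had 303 in a peak of 16.7 kb in D4, of which 68.5% lay outside, and 100 in a peak of 6.25 kb in MEF. Counted with whole peaks, the centred differences were 0.59 for Cyr61 and -0.67 for Ctgf, and with peaks prorated to the window they were -1.67 and -1.64, so the sign on Cyr61 depends on whether the sequence before the gene is counted.

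Both cKit libraries had little H3.3 on the members. Yap1 had 34.8 tags per 10 M in cKit+ and 11.2 in cKit-, Tead1 50.8 and 9.79, and Lats2 39.2 and 11.3, and these 3 were called higher in cKit+ at 1.24, 1.78 and 1.36. Wwtr1 had 41.1 and 73.7, with a centred difference of -0.55. Cyr61 had no peak in cKit+ and 18.3 in 3 peaks in cKit-, and was called lower at -1.34. With a pseudocount of 20 the differences of Cyr61 and Yap1 were -0.83 and 0.92, and with peaks prorated to the window that of Cyr61 was -0.99. Of the 7 members with a peak in either library, 1 was thus lower and 3 higher, beside 11.3% in each direction over 9383 genes. The share of tags in peaks was 1.65% in cKit+ and 2.31% in cKit-, the median peak was 0.500 kb long in both, and the part of this in the values was not tested.

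Wider lists of pathway genes and of targets of Yap1 and Taz had mostly lower H3.3 in iPSCs than in D0. Of 22 further pathway genes, 21 had an H3.3 peak in D0 or iPSCs, and 16 of these were lower in iPSCs, 2 were higher and the median was -1.41. Of 19 further targets, 12 were lower, 0 were higher and the median was -1.65. These counts stand beside 24.4% lower and 28.2% higher over all genes, and fibroblast markers were lower on 8 of 8. The lists were chosen with earlier results of these data known, so the counts describe these lists and are not an independent check. In ESD3 against D0, which uses the same D0 library, 14 of 21 pathway genes and 12 of 19 targets were lower. In D0 against MEF, 7 of 21 pathway genes were higher and 1 lower, with a median of 0.59. Of 19 targets, 1 was higher and 5 were lower, with a median of 0.09. Over all genes, 16.5% were higher and 15.4% lower in D0 than in MEF. The part of the single D0 library in the lower counts was not tested. For H3K4me3, 6 of 22 pathway genes and 8 of 19 targets were lower in iPSCs and 0 were higher, beside 8.44% lower and 11.4% higher over all genes. For H3K36me3, 11 of 21 pathway genes were lower and 1 higher, and 6 of 16 targets were lower and 2 higher, beside 26.4% lower and 28.5% higher.

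The largest decreases in these lists were on Crim1, which encodes a membrane protein that binds BMPs, from 863 tags per 10 M in D0 to 25 in iPSCs (-4.18), on the RNA-binding protein gene Rbms3 from 2183 to 91.0 (-3.98), and on Frmd6, an upstream regulator of the kinases, from 1012 to 53.0 (-3.56). Frmd6 was also lower in the successful fraction on days 6, 9, 12 and 16, at -1.61, -1.97, -1.20 and -1.34. The largest increases were on Nf2, which encodes the upstream activator merlin, from 117 to 253 (1.5), and on Wwc1, its partner Kibra, from 119 to 186 (1.06). The next, Ptpn14, which encodes a phosphatase that binds Yap1, went from 630 to 720, and its difference of 0.65 did not pass the call.

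Among 11964 protein-coding genes with an H3.3 peak in at least 8 of the 12 reprogramming libraries, the genes whose summed tags ranked most like those of Cyr61 were Fbxo34, Stk3 and Wbp11, each with a Spearman rho of 0.98. Those most like Tead4 were Cops3, Cdkn2a and Sap30bp, each with 0.99, and those most like Ctgf were Unc5b, 1600029D21Rik and Flii, each with 0.85. Among the members, Cyr61 was most like Tead3 (0.79) and Wwtr1 (0.78), and rho between Cyr61 and Ctgf was 0.16. Stk3, from the list of further pathway genes, encodes a kinase that acts upstream of Lats1 and Lats2. These correlations describe 12 libraries that share depth and list length as sources of variation.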

How the data were processed

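ChIP-Seq was measured for H3.3 in 16 libraries and for H3K4me3 and H3K36me3 in 7 each, with 16 input libraries. Per the labels, reads were aligned to mm9 with STAR and peaks called with HOMER, whose versions are not given in the sources used here. Per the file headers, each library was called separately against an input, requiring a fold over input of 2 for H3.3 and 4 for the other marks and a Poisson p-value of 1e-04. The authors deposited for each peak a normalized tag count, a signal of tags in the peak per 10 M tags, which is neither input-subtracted nor divided by length, and a fold, the ratio over input. The input libraries had no peak list analysed here.

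GENCODE vM1 gene models on NCBIM37 were used. Peaks carried 31 chromosome names, of which 21 matched the reference, and 0 peaks ran past a chromosome end. Any peak overlapping a gene window counted with its whole score. Differences were taken on the log2(value + 10) scale, which understates changes of low values, and genes with no peak in either library were left out. Intervals are exact Poisson or conditional binomial, at 95%. With 1 library per group there was no test. The members, gene lists and comparisons were chosen with earlier results of these data known. All 10 members are described, and the promoter sequence of Ctgf is not reported here. Of the wider lists, the 3 genes with the largest decrease and increase in H3.3 are named, and for Ctgf, Cyr61 and Tead4 the 3 genes of highest rho. Ajuba is Jub in the annotation. Alternatives changed the overlap rule, window, pseudocount, centring, number of peaks and fold over input. Leaving out the windows of other genes was added after seeing the data, and it also prorated peaks to what was left of the window. The computation was tested on simulated data and used Python 3.11.15, numpy 2.4.6, pandas 2.3.3, scipy 1.17.1 and matplotlib 3.10.9.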

Additional observations from a re-analysis of the deposited data

Results flagged for a closer look

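Lats1, the kinase gene, had opposite signs of H3.3 in the successful fraction on days 6 and 9. On day 6 the centred difference of D6T- from D6T+ was 2.37, and on day 9 that of D9T- from D9T+ was -1.73. In D6T-, 9 peaks over 10.7 kb held 145 tags per 10 M, whereas D6T+ had a single peak of 0.500 kb with 6.98. In D9T-, 3 peaks over 1.5 kb held 18.1, and in D9T+ 7 peaks over 4.52 kb held 65.4. Each side is 1 library, and the difference between the days was not tested. Over the alternatives with centring, the value lay between 1.51 and 2.65 on day 6 and between -2.23 and -0.84 on day 9.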

How the results depend on the processing

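Values follow for the alternatives that moved a count of members by more than 1.5 times. They also follow where a called member turned sign. Differences within the band of 1 turned sign on more members than are given here. Tead3 in D16S+ against D16S-, for example, went from 0.28 to -0.44 with prorated scores and -0.98 without other windows.
In iPSCs against D0, H3.3 gave 1 lower and 1 higher with flanks of 5 kb, 7 lower with H3.3 peaks of at least 4-fold, and 1 higher with equal numbers of peaks, with a pseudocount of 5 or without the windows of other genes. H3K4me3 gave 1 lower with prorated scores, 2 without other windows and 6 with no centring. H3K36me3 gave 3 higher with equal numbers of peaks, 2 higher with a pseudocount of 5, 2 lower without other windows and 8 lower with no centring.
On day 6, 2 were higher over the gene body, 1 was lower with flanks of 5 kb or a pseudocount of 20, and 0 were lower with no centring. On day 9, 3 were lower by midpoint or at a fold of at least 4 (also 3 higher), 2 lower and 1 higher over the gene body, and 1 higher with flanks of 5 kb, equal numbers of peaks or without other windows. On day 12, 2 were higher by midpoint, 1 with prorated scores, gene body, fold of at least 4, pseudocount of 5 or without other windows, and 8 lower with no centring. On day 16, 3 were lower by midpoint, 2 with prorated scores, gene body, pseudocount of 20, genes with a peak in both libraries or without other windows, 3 lower and 1 higher with flanks of 5 kb, 2 higher at a fold of at least 4, 1 higher with a pseudocount of 5, and 7 lower with no centring.
In D4 against MEF, 2 were lower and 2 higher with prorated scores, 2 lower and 3 higher without other windows, 2 higher over the gene body or with flanks of 5 kb, 2 lower with equal numbers of peaks, 0 lower and 2 higher with a pseudocount of 20, and 0 lower and 9 higher with no centring, where Tead3 turned to 1.00. In cKit+ against cKit-, 0 were lower by midpoint, prorated scores, gene body or a pseudocount of 20. The cause was not tested.
The other 151 of 209 alternatives left the count within 1.5 times. Wwtr1 in iPSCs against D0 lay between -2.39 and -1.76 with centring and passed the call under 10 of 10 alternatives. Its day 16 value lay between -2.65 and -0.63, and Tead4 for H3K36me3 between 3.41 and 5.29. With 1 library per group no replicate could be left out, and list length limits what could be detected in D12S+, D16S+ and the cKit libraries. Lats1 for H3.3 in iPSCs against D0 turned from 0.51 to -0.54 by midpoint and -0.16 without other windows, and Tead4 from 0.70 to -1.46 at a fold of at least 4. Sorted fractions were compared within their day. A fit with a replicate block could not be made, because the labels give no replicate numbers and each fraction of a day had 1 library.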
